A study of Mus musculus with 36 samples.

Results

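The mouse mitochondrial genome is a small circle that encodes 13 proteins, 2 ribosomal RNAs and 22 transfer RNAs, and these 37 genes are described here in mouse embryonic stem cells. They were taken as every gene whose symbol starts with mt- in the deposited count table, which gave 37 of 55335 genes. The table holds 36 bulk RNA sequencing libraries, from cells given DMSO (the solvent), BPK25 (a compound known here only by this code name) or auxin (IAA) and collected at day 0, 2, 4 or 6, with 3 libraries in each of the 12 groups. All groups are labelled as the same mESC type, kept in a serum replacement medium with the cytokine LIF, usually over gelatin and irradiated mouse embryonic fibroblasts as feeder cells, so RNA of feeder cells can be in any library. Auxin is the plant hormone used to trigger breakdown of a protein that carries a degron tag in cells engineered for it. The labels name no tagged protein, genotype or dose, and do not say when a treatment began, so day 0 is not described as an untreated baseline. The series title concerns the NuRD chromatin complex and sites of the factor CTCF. The labels do not tell whether the replicates came from different cultures. The p-values here therefore reflect how much these libraries varied, and that variation may be only technical.

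Mitochondrial DNA is transcribed from both strands into long precursors by a dedicated RNA polymerase, and the transfer RNAs that lie between the other genes are cut out to release messenger and ribosomal RNAs. The 13 proteins are core subunits of 4 enzymes of oxidative phosphorylation: NADH dehydrogenase (complex I, the 7 mt-Nd genes), cytochrome bc1 (complex III, mt-Cytb), cytochrome c oxidase (complex IV, the 3 mt-Co genes) and ATP synthase (mt-Atp6 and mt-Atp8). All other subunits of these enzymes are nuclear genes. The amount of mitochondrial RNA in pluripotent cells is known to change as the cells leave the stem cell state.

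On the GRCm38 mitochondrial chromosome, 28 of the 37 genes lie on the plus strand and 9 on the minus strand, namely mt-Nd6 and 8 transfer RNA genes. None of them has introns. Neighbouring genes touch or overlap, so some reads belong to 2 genes at once. The stretch shared by mt-Atp8 and mt-Atp6, which are read from 1 messenger RNA in different frames, is shown with its 43 shared bases in capitals, because a read inside it cannot be given to either gene.
mt-Atp8/mt-Atp6, chrM:7918-7978, plus strand: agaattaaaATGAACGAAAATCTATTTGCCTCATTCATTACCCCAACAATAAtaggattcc
The ends of mt-Nd5 and mt-Nd6 overlap by 14 bases on opposite strands, in capitals in the next line, and this is where the only minus-strand messenger RNA gene meets a plus-strand one.
mt-Nd5/mt-Nd6, chrM:13537-13580, plus strand: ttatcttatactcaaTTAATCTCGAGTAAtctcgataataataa
Several mitochondrial reading frames end in a bare T, and the stop codon is completed when the poly(A) tail is added. The last 24 bases of mt-Cytb and of mt-Co3 end that way, and mt-Co1 is shown beside them with a complete stop codon. Messages of both kinds were counted in these libraries, which were made from polyadenylated RNA. Capitals mark the stop codon or the part of it that the DNA encodes.
mt-Cytb, chrM:15265-15288: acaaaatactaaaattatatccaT
mt-Co3, chrM:9367-9390: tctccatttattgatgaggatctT
mt-Co1, chrM:6849-6872: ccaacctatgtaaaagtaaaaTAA

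A block of nuclear pseudogenes limits what can be said of some members. The stretch chr1:24611535-24616197 on the minus strand of GRCm38 carries annotated copies of 7 of the 13 protein-coding genes. The copies Gm10925 of mt-Atp6, Gm28661 of mt-Co2, Gm28437 of mt-Co3 and Gm10222 of mt-Nd4l were 100% identical to the mitochondrial gene. Gm28439 was identical over bases 1 to 876 of mt-Nd4, and Gm29216 matched bases 1063 to 1545 of mt-Co1 at 99.79%. Gm28438 matched mt-Nd3 at 99.71%, and the one base that differs is shown in capitals in the first 40 bases of each, both read in the direction of the gene (T3C, counted from the first base of mt-Nd3).
mt-Nd3, chrM:9459-9498: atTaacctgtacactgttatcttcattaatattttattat
Gm28438, chr1:24613080-24613119, minus strand: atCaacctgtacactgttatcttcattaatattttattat
Reads from identical stretches cannot be placed, and the sources used here do not give the authors' rule for counting such reads.

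Over all 36 libraries, the copy held 91.0% of the counts of the pair for mt-Nd3, with 74.2% to 95.7% in single libraries. For mt-Co3 it held 42.4%, for mt-Nd4l 38.6%, for mt-Atp6 37.3% and for mt-Co2 27.7%. For mt-Nd4 the share was 2.55% and for mt-Co1 1.22%. The levels of mt-Nd3, mt-Co3, mt-Nd4l, mt-Atp6 and mt-Co2 are therefore uncertain. Single libraries departed far from their group, in CPM (counts scaled to library size): Gm28661 had 274.4 CPM in BPK25 day 2 replicate 3, and Gm28437 had 99.7 in BPK25 day 0 replicate 1. The genes mt-Nd1, mt-Nd2, mt-Atp8, mt-Nd5, mt-Nd6 and mt-Cytb had no annotated copy at 99% identity or more. Only annotated transcripts were searched. On chrM, mt-Atp8 and the transfer RNA genes mt-Ts1, mt-Td and mt-Tk lie between genes whose copies are neighbours in the block. By their coordinates, the matched parts of these copies are spaced on chr1 as on chrM, so the sequence between them may be copied too. Unannotated copies of mt-Atp8, mt-Ts1, mt-Td and mt-Tk there were not looked for. Thus mt-Atp8 cannot be taken as free of a copy.

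**Figure D1:**
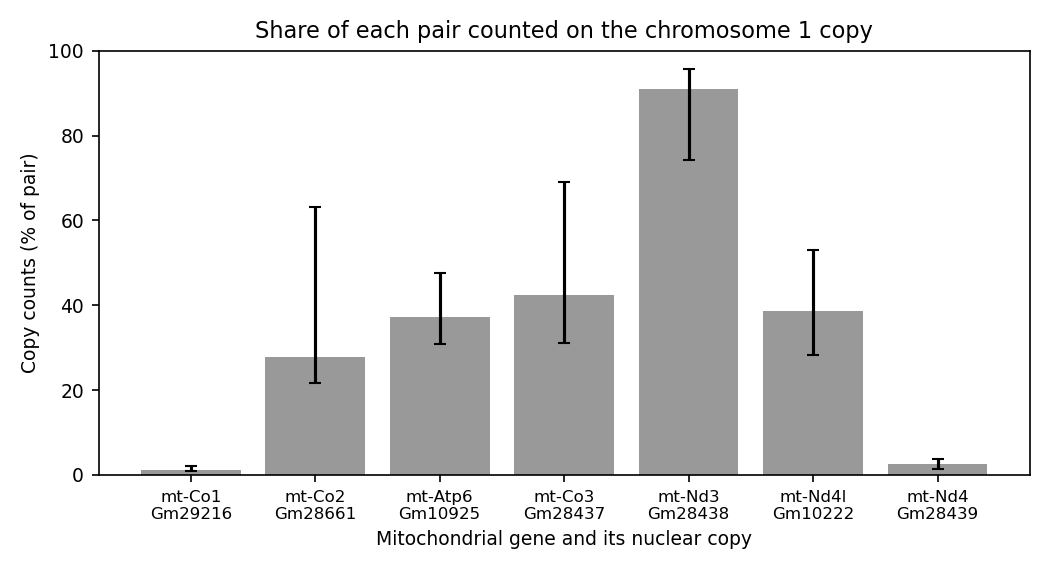
Counts assigned to the nuclear copy as a percentage of all counts of the mitochondrial gene and its copy, for the 7 pairs. Bars pool all 36 libraries and whiskers run from the lowest to the highest library. The mt-Nd3 pair stands at 91.0%, and mt-Nd4 and mt-Co1 stand at 2.55% and 1.22%.

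Library totals ran from 6621288 to 16497799 counts assigned to genes, and the 37 genes held 1.03% to 2.52% of them. Levels are given as CPM, the usual counts-per-million unit, with library totals scaled by the TMM method, and compared between genes only per kilobase of gene. Of the 37 genes, 30 passed the filter on low counts: all 13 protein-coding genes, both ribosomal RNA genes and 15 of 22 transfer RNA genes. The 7 others were mt-Tq, mt-Ty, mt-Tg, mt-Tr, mt-Th, mt-Ts2 and mt-Tl2. A gene was called higher or lower at an adjusted p under 0.05 in edgeR's quasi-likelihood test, fitted on all 17394 genes that passed the filter. In bulk RNA, a change in the number of cells of a type and a change in RNA per cell cannot be told apart.

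The members differed widely in level. Averaged over the 36 libraries, mt-Cytb was the most abundant per length at 3517 CPM per kilobase, followed by mt-Co1 at 2572, mt-Nd1 at 2426, mt-Nd5 at 1455 and mt-Nd2 at 1066. Next came mt-Nd4 at 537, mt-Atp8 at 488, mt-Co2 at 304 and mt-Atp6 at 285. The leading gene differed between groups. In group means, mt-Nd1 (2365) was above mt-Cytb (2239) in DMSO at day 2 and level with it at day 0 (2253 against 2251), mt-Co1 (4536) was above mt-Cytb (3526) with IAA at day 6, and mt-Cytb was highest in the other 9 groups. The lowest over the 36 libraries were mt-Nd4l at 73.3, mt-Nd6 at 64.5, mt-Co3 at 59.8 and mt-Nd3 at 18.4. The ribosomal RNAs, which are abundant in cells, stood in these libraries of polyadenylated RNA at 277 CPM per kilobase for mt-Rnr1 and 229 for mt-Rnr2. The 4 messenger RNAs with the most counts held 81.5% to 86.8% of all mitochondrial messenger RNA counts in a library, so the summed level mainly follows those genes.

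The summed level of the 13 messenger RNAs was lowest in the BPK25 libraries of days 0 and 2 and highest with IAA at day 4. With DMSO it was 11305 ± 167 CPM at day 0, 11495 ± 634 at day 2, 13210 ± 482 at day 4 and 16326 ± 127 at day 6 (mean ± SD, n = 3 here and below). With BPK25 it was 10000 ± 75.1, 9974 ± 362, 18351 ± 987 and 17970 ± 261 at the same days. With IAA it was 15999 ± 157, 16500 ± 633, 23676 ± 291 and 20359 ± 695. The differences from DMSO of the same day were −0.18, −0.20, 0.47 and 0.14 on the log2 scale for BPK25, and 0.50, 0.52, 0.84 and 0.32 for IAA. The 3 libraries of each treated group lay wholly on one side of the 3 DMSO libraries in all 8 comparisons, and each gave p = 0.1 in a two-sided exact permutation test, the smallest p that 3 against 3 allows. Both treatments are compared with the same DMSO libraries. The sum of 12 fibroblast markers, which feeder cells could bring, also differed at day 4, at 270 CPM in DMSO, 200 with BPK25 and 387 with IAA. The 12 did not all move the same way, and the part of this sum in the result was not tested.

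**Figure D2:**
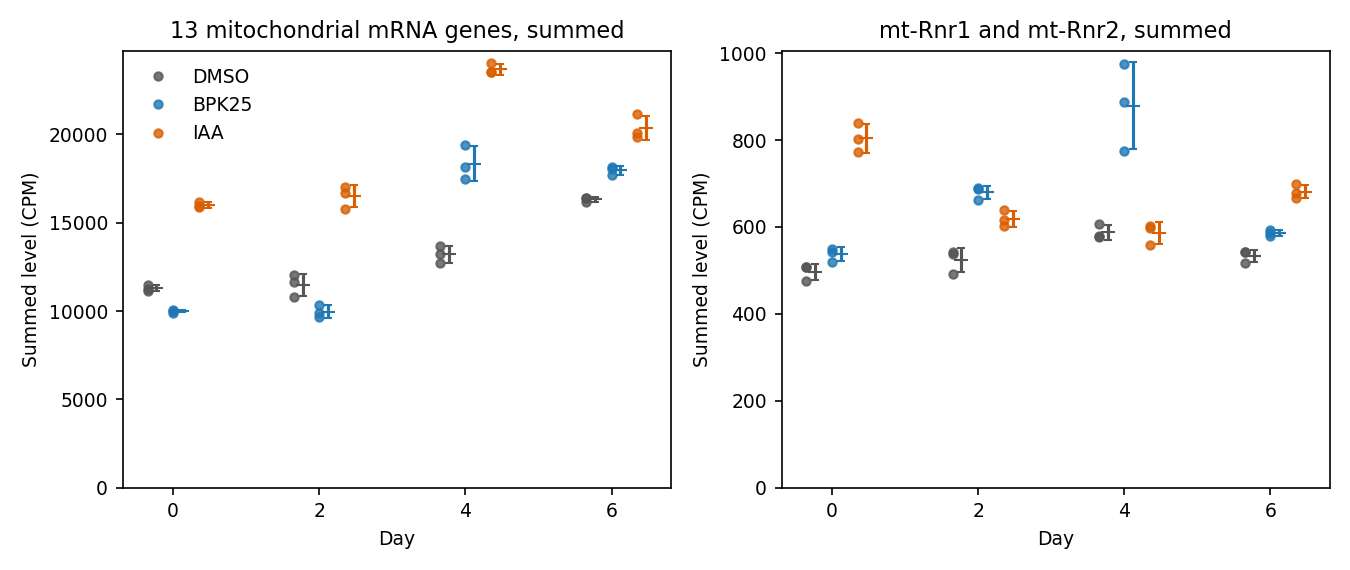
Summed CPM of the 13 messenger RNAs (left) and of the 2 ribosomal RNAs (right) by day and treatment. Dots are libraries, and bars with whiskers are the mean and SD of 3 libraries. The messenger RNA sum with IAA at day 4 (mean 23676) stands above all other groups, while the ribosomal RNA sum is highest with BPK25 at day 4 (mean 879).

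Counted gene by gene, the 13 messenger RNAs moved mostly upward with IAA. At day 0, 11 were called higher and 1 lower, where 21.3% of all tested genes were called higher and 23.2% lower. The counts were 10 higher and 0 lower at day 2 (all tested genes 27.5% and 27.9%), 12 and 0 at day 4 (25.9% and 25.9%), and 6 and 2 at day 6 (30.6% and 30%). The median log2 difference of the 13 was 0.60, 0.56, 0.84 and 0.25, while the median over all tested genes lay between −0.03 and 0.04 in every comparison made here.

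With BPK25, 4 of the 13 were called lower at day 0 and 3 at day 2, and 0 higher (all tested genes called lower 4.58% and 7.12%, higher 3.32% and 6.4%). The number called was 8 at day 0 and 6 at day 2 with no filter on low counts, and at day 0 it was 7 with only the libraries compared and 8 with only the 9 libraries of that day. At day 4, 11 of the 13 were called higher and 0 lower, where all tested genes gave 26.2% and 26.8%. At day 6, 6 were called higher and 0 lower, against 4.01% and 3.08% of all tested genes. The medians of the 13 were −0.12, −0.17, 0.46 and 0.20. Of the 11 calls at day 4, mt-Atp8, mt-Atp6 and mt-Nd4 had libraries that overlapped between groups, and the count was 8 with DESeq2 and 8 to 11 when single libraries were left out (8 without DMSO day 4 replicate 1).

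In DMSO alone, day 2 did not differ from day 0 for any of the 13 in edgeR, with 0 at an unadjusted p under 0.05 and 0 called by DESeq2 (all tested genes 1.59% higher and 3.85% lower). By day 4, 6 of the 13 had risen from day 0 and 0 had fallen (26% and 24.4% of all tested genes), and at day 6, 10 and 0 (33.2% and 29.5%). Over the 6 genes without a near-identical annotated copy, 6 were called higher and 0 lower with BPK25 at day 4 (all tested genes 26.2% and 26.8%). With IAA at day 4 the counts were also 6 and 0 (25.9% and 25.9%). At day 0 BPK25 gave 0 and 3 (3.32% and 4.58%), and at day 2 0 and 2 (6.4% and 7.12%). At day 6 BPK25 gave 5 and 0 (4.01% and 3.08%). With IAA the counts were 5 and 1 at day 0 (21.3% and 23.2%) and 4 and 0 at day 2 (27.5% and 27.9%). At day 6 IAA gave 4 and 1 (30.6% and 30%). In DMSO, 4 of these 6 were higher at day 4 than at day 0, and 3 at day 6, with 0 lower. The 6 include mt-Atp8, for which an unannotated copy was not looked for.

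**Figure D3:**
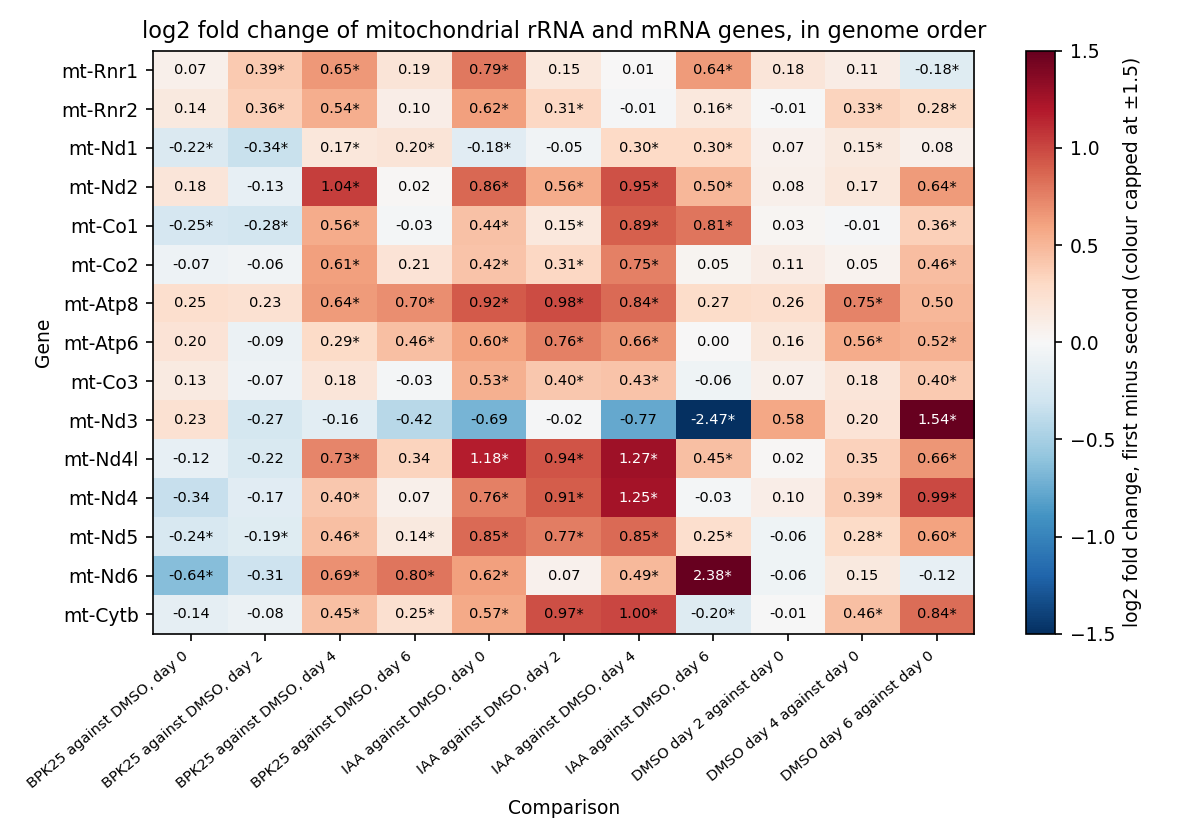
Log2 difference of the 2 ribosomal RNA and 13 messenger RNA genes, in genome order, in the 11 comparisons that include DMSO. Red is higher and blue lower in the first-named group, colours are capped at 1.5 in either direction, and an asterisk marks a call. The IAA day 4 and BPK25 day 4 columns are mostly red in the messenger RNA rows, and the IAA day 6 column holds both the largest rise (mt-Nd6, 2.38) and the largest fall (mt-Nd3, −2.47).

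Of the complex I genes, mt-Nd1 (chrM:2751-3707, plus strand) encodes a membrane subunit beside the quinone site, and differed from DMSO by at most 0.34 on the log2 scale in either direction. In DMSO it read 2118, 2228 and 2121 CPM at day 0 (replicates 1, 2 and 3, in that order throughout), 2107, 2318 and 2364 at day 2, 2424, 2428 and 2307 at day 4, and 2292, 2219 and 2329 at day 6. With BPK25 the values were 1826, 1818 and 1913, then 1812, 1789 and 1764, then 2792, 2567 and 2689, and at day 6 2616, 2645 and 2589. All BPK25 libraries were below the DMSO libraries at days 0 and 2 and above them at days 4 and 6. The log2 differences were −0.22, −0.34, 0.17 and 0.20, all called, the weakest at an adjusted p of 1.22e-03. With IAA it read 1943, 1958 and 1826 at day 0, 2120, 2199 and 2238 at day 2, 2992, 2783 and 3055 at day 4, and 2818, 2758 and 2824 at day 6. It was the one messenger RNA called lower with IAA at day 0, by −0.18 (adjusted p = 4.37e-04), was not called at day 2, and was called higher by 0.30 at both later days. Its share of the messenger RNA sum was 19.1% in DMSO at day 0 and 11.9% with IAA at day 0.

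The gene mt-Nd2 (chrM:3914-4951, plus strand), another membrane subunit of the proton-pumping arm, was higher with IAA at every day. In DMSO it read 771, 671 and 715 CPM at day 0, 717, 777 and 781 at day 2, 721, 1038 and 663 at day 4, and 1071, 1245 and 1038 at day 6. IAA gave 1357, 1231 and 1338, then 1030, 1152 and 1169, then 1462, 1498 and 1738, and at day 6 1511, 1631 and 1611. No IAA library overlapped DMSO of its day, and the log2 differences were 0.86, 0.56, 0.95 and 0.50 (adjusted p from 1.39e-11 to 1.70e-05). BPK25 gave 820, 914 and 704, then 652, 634 and 797, both overlapping DMSO. It then gave 1891, 1487 and 1609 at day 4, where the difference of 1.04 ± 0.10 (SE) was the largest of the 13 in that comparison (adjusted p = 1.07e-12). At day 6, with 1114, 1032 and 1241, BPK25 again overlapped DMSO.

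The gene mt-Nd5 (chrM:11742-13565, plus strand), the largest membrane subunit and part of the proton-pumping arm, was measured tightly. In DMSO it read 1851, 1882 and 1833 CPM at day 0, 1689, 1825 and 1811 at day 2, 2265, 2295 and 2219 at day 4, and 2850, 2791 and 2809 at day 6. The DMSO libraries of days 4 and 6 thus stood above those of day 0, by 0.28 and 0.60 on the log2 scale (adjusted p = 1.51e-08 and 4.69e-19). With IAA it read 3391, 3316 and 3302, then 2899, 3085 and 3076, then 4036, 3980 and 4212, and at day 6 3330, 3274 and 3480. Its log2 difference from DMSO was 0.85, 0.77, 0.85 and 0.25, called at each day. BPK25 gave 1580, 1585 and 1555, then 1588, 1517 and 1574, then 3238, 2927 and 3128, and 3038, 3167 and 3134 at day 6. These were below all DMSO libraries at days 0 and 2 and above them at days 4 and 6. The day 4 difference was 0.46 (adjusted p = 1.49e-14), and the day 6 difference of 0.14 was not called without BPK25 day 6 replicate 2.

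The gene mt-Nd4 (chrM:10167-11544, plus strand), a further subunit of the pumping arm, is read from 1 messenger RNA with mt-Nd4l, with which it shares 7 bases. It read 467, 441 and 446 CPM in DMSO at day 0, 415, 445 and 587 at day 2, 517, 506 and 755 at day 4, and 834, 982 and 873 at day 6. The DMSO day 6 libraries were above day 0 by 0.99 (adjusted p = 2.33e-08). With IAA it read 702, 723 and 865, then 777, 1096 and 855, then 1554, 1360 and 1307, which was above DMSO by 0.76, 0.91 and 1.25 ± 0.14 (adjusted p = 5.66e-11 at day 4). At day 6 IAA gave 847, 941 and 840, inside the DMSO range. BPK25 gave 347, 364 and 358, then 350, 337 and 609, then 938, 725 and 671, and 942, 899 and 979 at day 6. Only day 4 was called, at 0.40 (adjusted p = 0.0115). That call was lost with DESeq2, and when BPK25 day 4 replicate 1 was left out (0.24) or either of DMSO day 4 replicates 1 and 2 (0.30 each).

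Its partner mt-Nd4l (chrM:9877-10173, plus strand), a small membrane subunit, had few counts. It read 12.3, 12.6 and 14.4 CPM in DMSO at day 0, 10.8, 13.5 and 14.7 at day 2, 18.5, 15.6 and 15.3 at day 4, and 21.3, 21.4 and 19.1 at day 6. IAA gave 30.2, 31.7 and 26.2, then 22.2, 26.3 and 27.0, then 37.1, 34.2 and 48.2, and 31.5, 25.3 and 27.4 at day 6. All IAA libraries were above DMSO of their day, with log2 differences of 1.18, 0.94, 1.27 and 0.45. The day 6 call was lost without IAA day 6 replicate 1 (0.34). With BPK25 only day 4 was called, at 0.73 ± 0.15 (adjusted p = 6.46e-05), from 38.1, 18.7 and 22.9 CPM.

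The gene mt-Nd3 (chrM:9459-9806, plus strand) encodes a small subunit with a loop that shifts as complex I changes state, and its few counts do not allow a firm statement. Most libraries lay between 2.18 and 8.89 CPM, and 4 stood apart, at 28.2 in DMSO day 6 replicate 1, 26.3 in BPK25 day 6 replicate 2, 13.4 in IAA day 2 replicate 3 and 10.8 in BPK25 day 2 replicate 3. It was called lower with IAA at day 6 (2.38, 2.84 and 2.79 CPM, against 28.2, 4.75 and 5.71 in DMSO), at −2.47 ± 0.54 (adjusted p = 1.15e-04). Without DMSO day 6 replicate 1 the value was −0.98 and not called, and with the counts of Gm28438 added it was −1.35 and called. Its copy also read lower with IAA at day 6, at 31.2, 31.3 and 36.9 CPM against 81.0, 70.9 and 78.9 in DMSO. The rise in DMSO from day 0 to day 6, 1.54, was 0.04 without DMSO day 6 replicate 1 and was then not called.

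The gene mt-Nd6 (chrM:13552-14070) encodes a membrane subunit of complex I and is the only messenger RNA gene on the minus strand. Its DMSO level was flat, at 21.1, 23.4 and 23.7 CPM at day 0, 24.5, 20.8 and 20.6 at day 2, 22.7, 28.0 and 24.8 at day 4, and 19.4, 22.6 and 21.2 at day 6. The IAA libraries read 36, 32.4 and 36.4, then 20.5, 22.6 and 25.0, then 35.4, 37.0 and 34.0, and 96.1, 129 and 101 at day 6. The IAA day 6 libraries were far above all 33 others, and the difference from DMSO of 2.38 ± 0.12 (adjusted p = 7.12e-23) was the largest rise among the 13 in any comparison with DMSO. It was 2.23 to 2.45 when single libraries were left out and 2.39 with DESeq2. IAA was also called higher at day 0 (0.62) and day 4 (0.49) but not at day 2.

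With BPK25, mt-Nd6 read 15.3, 15.5 and 12.9 CPM at day 0, 15.4, 17.1 and 20.9 at day 2, 36.7, 42.8 and 43.1 at day 4, and 29.5, 25.9 and 50.9 at day 6. The libraries stood below DMSO at day 0 and above it at days 4 and 6. The day 0 call (−0.64) was lost when BPK25 day 0 replicate 3 was left out (−0.56), and likewise for DMSO day 0 replicates 2 and 3 (−0.61 and −0.60). The day 4 difference was 0.69 (adjusted p = 3.31e-05), and the day 6 difference was 0.80, or 0.42 without BPK25 day 6 replicate 3 and still called. At day 6, BPK25 was below IAA by −1.57 (adjusted p = 8.06e-17).

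**Figure D4:**
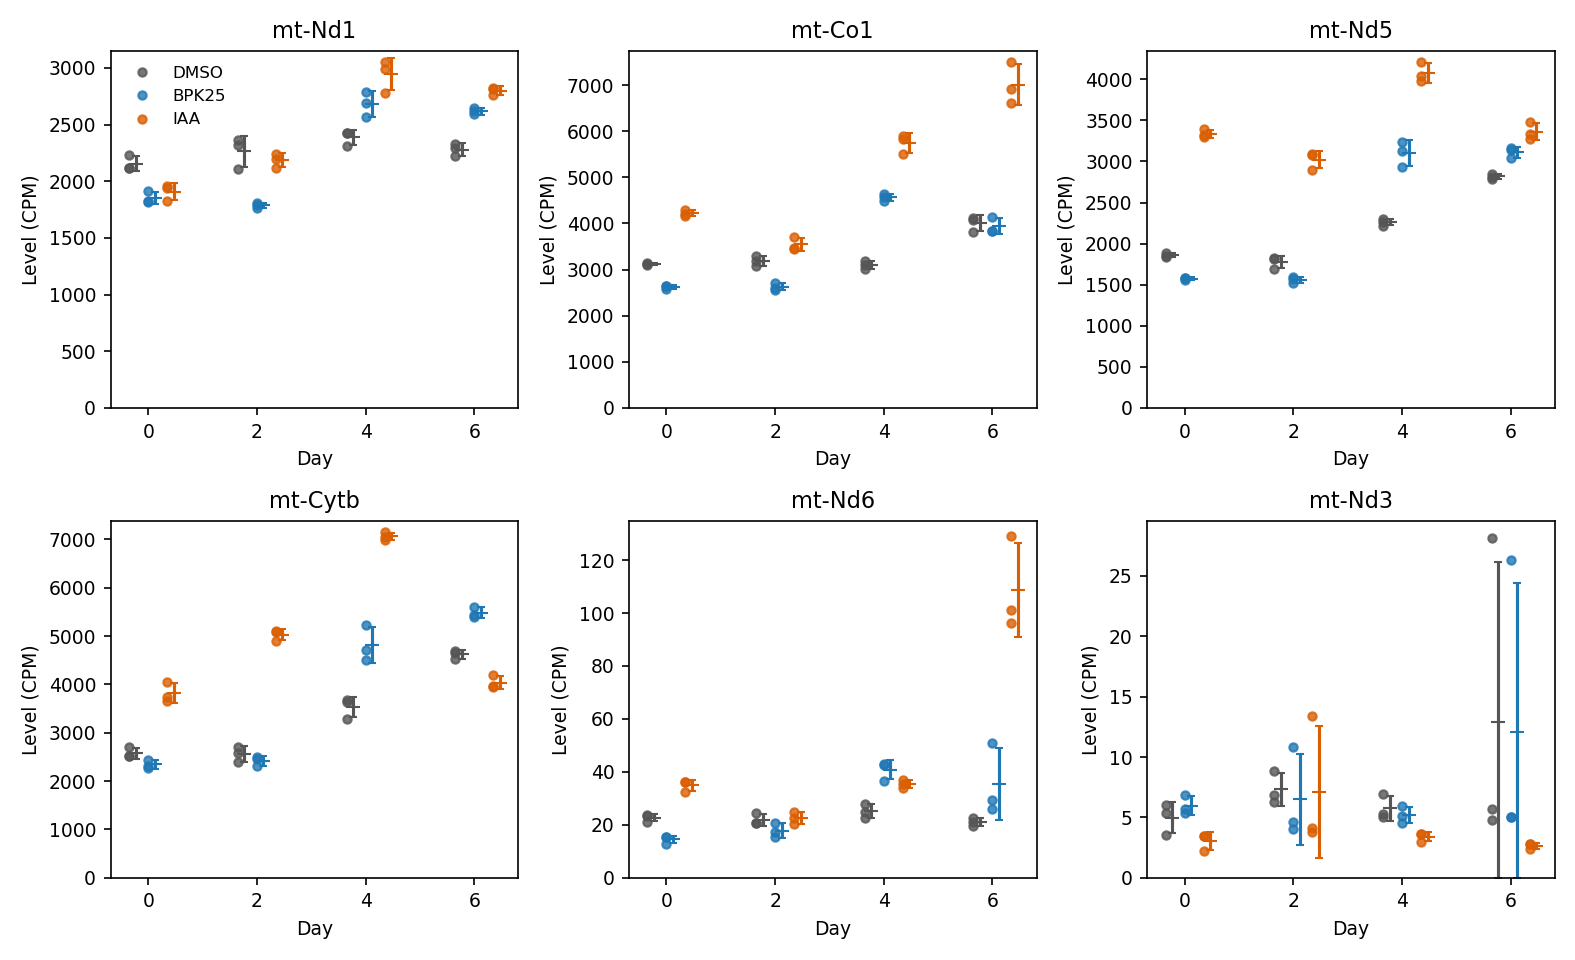
CPM per library of mt-Nd1, mt-Co1, mt-Nd5, mt-Cytb, mt-Nd6 and mt-Nd3 by day and treatment. Dots are libraries, and bars with whiskers are the mean and SD of 3 libraries, with the lower whisker stopped at 0. The 3 IAA day 6 libraries of mt-Nd6 (96.1 to 129) stand apart, mt-Cytb with IAA is highest at day 4, and mt-Nd3 has single high libraries at day 6.

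Complex III has 1 mitochondrial gene, mt-Cytb (chrM:14145-15288, plus strand), which encodes a core subunit of cytochrome bc1. In DMSO it read 2513, 2704 and 2510 CPM at day 0, 2393, 2588 and 2704 at day 2, 3680, 3632 and 3285 at day 4, and 4653, 4522 and 4691 at day 6. The later days stood above day 0 by 0.46 and 0.84 (adjusted p = 2.41e-11 and 8.72e-21). With IAA it read 3667, 4047 and 3742, then 4895, 5103 and 5076, then 7144, 7039 and 6995, and at day 6 3966, 3943 and 4190. IAA was thus above DMSO up to day 4, by 0.57, 0.97 and 1.00, and below it at day 6, by −0.20 (adjusted p = 3.80e-04), with no overlap of libraries. BPK25 gave 2313, 2280 and 2440 at day 0 and 2502, 2307 and 2447 at day 2, neither called. It gave 5236, 4514 and 4704 at day 4 and 5394, 5608 and 5434 at day 6, above all DMSO libraries by 0.45 (adjusted p = 3.03e-11) and 0.25 (adjusted p = 5.79e-04).

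In complex IV, mt-Co1 (chrM:5328-6872, plus strand) encodes the catalytic subunit that holds the site of oxygen reduction. It read 3138, 3106 and 3132 CPM in DMSO at day 0, 3079, 3186 and 3303 at day 2, 3104, 3177 and 3009 at day 4, and 4085, 3807 and 4122 at day 6. With IAA it read 4171, 4215 and 4297, then 3473, 3714 and 3456, then 5501, 5888 and 5838, and 6910, 6618 and 7497 at day 6. All IAA libraries were above DMSO of their day, and the differences were 0.44, 0.15, 0.89 and 0.81 (adjusted p from 9.54e-24 to 1.51e-03). With BPK25 it read 2577, 2651 and 2634, then 2566, 2606 and 2710, then 4566, 4648 and 4480, and 3841, 4137 and 3831 at day 6. BPK25 stood below DMSO at days 0 and 2, above it at day 4 by 0.56 (adjusted p = 3.21e-16), and overlapped it at day 6.

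The order of mt-Cytb and mt-Co1 counts changed between groups. The ratio of mt-Cytb to mt-Co1 counts was 0.824, 0.803, 1.14 and 1.15 in DMSO at days 0, 2, 4 and 6, and 0.895, 0.921, 1.06 and 1.39 with BPK25. With IAA it was 0.903, 1.42, 1.23 and 0.576, the highest and the lowest of the 12 groups. At day 6 BPK25 was above IAA for mt-Cytb by 0.44 and below it for mt-Co1 by −0.83 (adjusted p = 1.14e-22 for the latter).

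The other complex IV genes share reads with identical nuclear copies. The gene mt-Co2 (chrM:7013-7696, plus strand) encodes the subunit that takes electrons from cytochrome c. It read 165, 168 and 150 CPM in DMSO at day 0, 154, 183 and 185 at day 2, 156, 189 and 153 at day 4, and 229, 217 and 219 at day 6. At day 4 the BPK25 libraries (259, 249 and 256) and the IAA libraries (274, 238 and 328) were all above DMSO, by 0.61 and 0.75 (adjusted p = 1.25e-07 and 6.72e-10). IAA was also above DMSO at day 0 (217, 248 and 181), by 0.42 (adjusted p = 2.19e-04). At day 6, IAA (237, 214 and 236) overlapped DMSO and was not called, and BPK25 (239, 240 and 287) lay above all DMSO libraries at 0.21 and was not called (adjusted p = 0.149). The IAA call at day 2 (0.31) was lost without IAA day 2 replicate 3 (0.17) and with the copy's counts added (0.25).

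The gene mt-Co3 (chrM:8607-9390, plus strand) encodes the third core subunit of complex IV. It lay between 33.7 and 47.0 CPM in the DMSO libraries of days 0 to 4 and at 53.3, 47.4 and 48.9 at day 6. IAA read 59.5, 45.6 and 61.7 at day 0, 51.1, 53.9 and 53.9 at day 2, and 71.5, 49.4 and 53.9 at day 4, above DMSO by 0.53, 0.40 and 0.43. At day 6 mt-Co3 was not called with IAA. With the counts of Gm28437 added, the day 0 and day 4 values were 0.35 and 0.30 and not called. At day 4 the value was 0.26 and still called without IAA day 4 replicate 1. No BPK25 comparison with DMSO was called.

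The ATP synthase genes mt-Atp6 (chrM:7927-8607) and mt-Atp8 (chrM:7766-7969), both on the plus strand, encode the proton channel subunit and a small membrane subunit beside it. In DMSO mt-Atp6 read 117, 143 and 124 CPM at day 0, 114, 173 and 143 at day 2, 178, 206 and 182 at day 4, and 177, 209 and 166 at day 6. IAA gave 201, 212 and 168, then 210, 233 and 283, then 276, 357 and 264, all above DMSO of the day, by 0.60, 0.76 and 0.66. At day 6, with 182, 180 and 192, IAA lay inside the DMSO range. BPK25 gave 250, 174 and 263 at day 4 and 268, 223 and 264 at day 6, called at 0.29 (adjusted p = 0.0296) and 0.46 (adjusted p = 6.42e-03). The day 4 call was lost without either of BPK25 day 4 replicates 1 and 3 or DMSO day 4 replicates 1 and 3 (0.22, 0.18, 0.23 and 0.26). The day 6 call was lost without DMSO day 6 replicate 1 or 3 (0.43 and 0.39).

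The gene mt-Atp8 spread widely between libraries. It read 53.6, 62.6 and 48.9 CPM in DMSO at day 0, 51.3, 82.7 and 63.7 at day 2, 83.3, 124 and 65.5 at day 4, and 79.3, 91.1 and 64.8 at day 6. IAA gave 111, 116 and 82.5, then 103, 123 and 162, then 125, 239 and 136, above DMSO by 0.92, 0.98 and 0.84. At day 6 mt-Atp8 was not called with IAA. The day 4 call was lost without IAA day 4 replicate 2 (0.50). BPK25 gave 124, 80.9 and 223 at day 4 and 117, 100 and 160 at day 6, called at 0.64 (adjusted p = 0.0124) and 0.70 (adjusted p = 0.0418). The day 4 value was 0.17 and not called without BPK25 day 4 replicate 3, and the day 6 value was 0.48 and not called without BPK25 day 6 replicate 3.

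The ribosomal RNAs form the core of the mitochondrial ribosome, and neither was called with IAA at day 4, where 12 of the 13 messenger RNAs were higher (edgeR, 0 of 2 at an unadjusted p under 0.05). In DMSO, mt-Rnr1 (the small subunit RNA, chrM:70-1024) read 210, 224 and 209 CPM at day 0, 236, 251 and 245 at day 2, 225, 243 and 226 at day 4, and 190, 191 and 188 at day 6. IAA gave 375, 386 and 352, then 263, 271 and 280, then 244, 220 and 235, and 297, 297 and 292 at day 6. It was above DMSO at day 0 by 0.79 (adjusted p = 5.42e-13) and at day 6 by 0.64 (adjusted p = 6.63e-11). It overlapped DMSO at day 4, where the log2 difference was 0.01, and was not called at day 2 (0.15). BPK25 gave 226, 227 and 223, then 329, 310 and 322, then 325, 302 and 459, and 213, 221 and 217 at day 6. It was called higher at day 2 by 0.39 (adjusted p = 7.04e-05) and at day 4 by 0.65 (adjusted p = 4.71e-11).

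The larger mt-Rnr2 (chrM:1094-2675) was also higher at day 4 with BPK25 and not with IAA. It then read 351, 365 and 353 CPM in DMSO, 563, 473 and 517 with BPK25 and 358, 338 and 363 with IAA. BPK25 stood above by 0.54 (adjusted p = 4.53e-13), and IAA overlapped DMSO at −0.01. At day 0 the IAA libraries (427, 453 and 420) were above DMSO (298, 283 and 267) by 0.62 (adjusted p = 3.99e-14). At day 2 IAA (338, 347 and 359) was above DMSO by 0.31 (adjusted p = 1.46e-06), and at day 6 by 0.16 (adjusted p = 4.41e-03). BPK25 at day 2 (359, 353 and 368) was above DMSO (257, 287 and 298) by 0.36 (adjusted p = 1.70e-06), while mt-Nd1, mt-Co1 and mt-Nd5 were called lower in that comparison. The count of both ribosomal RNAs per 100 messenger RNA counts was 2.47 with IAA at day 4 against 4.45 in DMSO, and 6.82 with BPK25 at day 2 against 4.56.

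Of the 22 transfer RNA genes, 15 were tested: mt-Tf, mt-Tv, mt-Tl1, mt-Ti, mt-Tm, mt-Tw, mt-Ta, mt-Tn, mt-Tc, mt-Ts1, mt-Td, mt-Tk, mt-Te, mt-Tt and mt-Tp. Their sum was 78.6 to 169 CPM per library, and mt-Tl1, a leucine transfer RNA next to mt-Rnr2, held most of it at a mean of 74.8 CPM. The libraries were made from polyadenylated RNA, so reads on transfer RNA genes may come from precursors not yet cut. Precursors and mature transfer RNAs cannot be told apart here. Several of the 15 passed the filter only through their higher libraries, such as mt-Ti and mt-Tk, each with a median of 7.5 reads per library. The numbers called among the 15 therefore partly follow from the filter. Against DMSO, 11 were called higher and 1 lower at day 4 with BPK25 (all tested genes 26.2% and 26.8%), and 11 and 1 with IAA (25.9% and 25.9%). The medians of the 15 were 1.06 and 0.97. With IAA the other days gave 5 higher and 1 lower at day 0 (21.3% and 23.2%), 7 and 0 at day 2 (27.5% and 27.9%), and 10 and 0 at day 6 (30.6% and 30%). With BPK25, 1 was called higher at day 2 (6.4% of all tested genes). At days 0 and 6 edgeR called 0 of the 15 with BPK25, with 1 at an unadjusted p under 0.05 each time.

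The one transfer RNA called lower with both treatments at day 4 was mt-Tv, the valine transfer RNA between the ribosomal RNA genes. It had 21, 7 and 22 reads with BPK25 against 39, 48 and 21 in DMSO, and −1.24 ± 0.29 after scaling (adjusted p = 2.66e-04). The IAA value of −0.62 was not called with DESeq2 or without any one of IAA day 4 replicates 1, 2 and 3. Among the more abundant genes, mt-Tl1 was higher by 0.45 with BPK25 and 0.28 with IAA at day 4, and by 0.57 with IAA at day 6. The aspartate transfer RNA gene mt-Td read higher by 1.36 ± 0.19 with BPK25 at day 4 (adjusted p = 6.02e-08). It lies between mt-Co1 and mt-Co2, whose nuclear copies are neighbours, and an unannotated copy of mt-Td itself was not looked for.

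At day 6 the minus-strand genes set IAA apart from DMSO. All 7 tested minus-strand genes were called higher, with a median of 1.40. Of the 23 tested plus-strand genes 11 were called higher and 2 lower, with a median of 0.26, where all tested genes gave 30.6% higher and 30% lower. The minus-strand mt-Tq and mt-Ty were not tested. With medians of 7, 5, 5.5 and 8 reads per library, mt-Tn, mt-Ta, mt-Tc and mt-Tp passed the filter only through their higher libraries. The minus-strand count and median therefore partly follow from the filter. Beside mt-Nd6, the proline transfer RNA mt-Tp had 32, 18 and 30 reads with IAA against 14, 7 and 3 in DMSO, and 2.25 ± 0.32 (adjusted p = 3.55e-08). The serine transfer RNA mt-Ts1 had 39, 26 and 33 against 18, 13 and 9, and 1.81 ± 0.29 (adjusted p = 4.41e-07). The glutamate transfer RNA mt-Te had 26, 32 and 34 against 18, 17 and 15, and 1.40 ± 0.26 (adjusted p = 9.34e-06). The libraries did not overlap after scaling for these 3. As for mt-Td, an unannotated nuclear copy of mt-Ts1 was not looked for.

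The other minus-strand genes mt-Tn, mt-Ta and mt-Tc, at 1.21, 1.14 and 1.07, had overlapping libraries, and their calls were lost without IAA day 6 replicate 1 (0.76, 0.81 and 0.71). Counts of mt-Nd6 per 100 counts of mt-Nd5, its neighbour on the opposite strand, were 2.89, 3.94 and 2.91 with IAA at day 6 against 0.682, 0.809 and 0.754 in DMSO. The sources used here do not state whether counting used strand. Reads of a minus-strand gene and antisense reads of the plus-strand transcript across it cannot be told apart. At day 2 with IAA, 5 of the 7 minus-strand genes were called higher (median 1.25), as were 13 of the 23 plus-strand genes with 0 lower (median 0.39, all tested genes 27.5% and 27.9%). At day 4 with IAA, 6 of the 7 minus-strand genes were called higher (median 1.60), as were 17 of the 23 plus-strand genes with 1 lower (median 0.81, all tested genes 25.9% and 25.9%). With BPK25 at day 4 the counts were 6 of 7 (median 1.06) and 18 of 23 with 1 lower (median 0.54, all tested genes 26.2% and 26.8%).

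**Figure D5:**
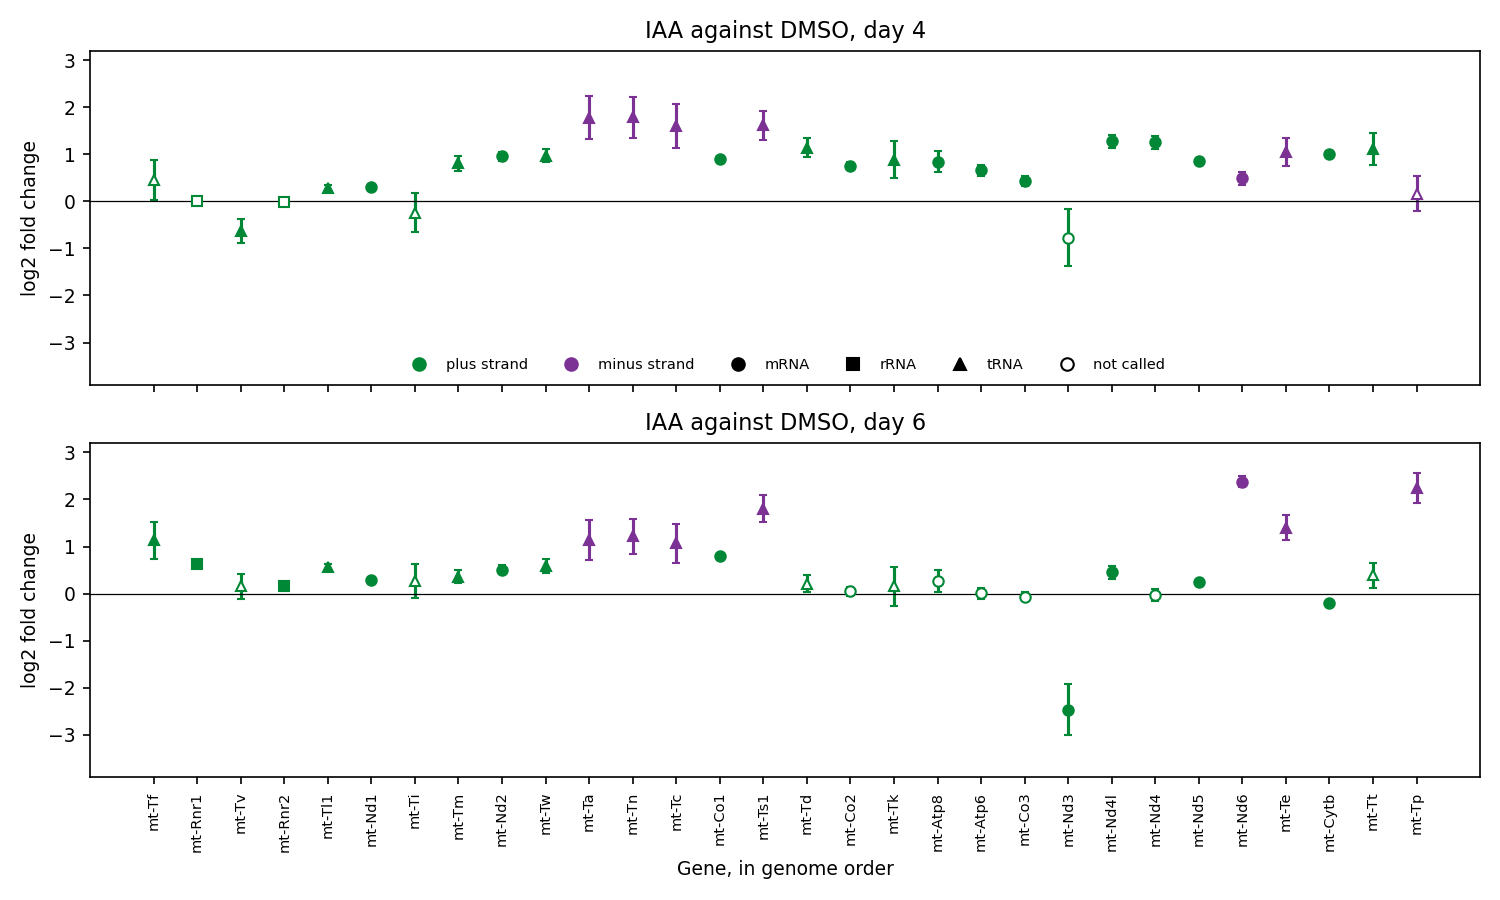
Log2 difference between IAA and DMSO, with SE, of the 30 tested mitochondrial genes in genome order at day 4 and day 6. Green is the plus and purple the minus strand, circles are messenger, squares ribosomal and triangles transfer RNAs, and open symbols were not called. At day 6 all 7 minus-strand genes lie above 1, with mt-Nd6 (2.38) the highest.

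Set directly against IAA at the same day, BPK25 was lower for most messenger RNAs up to day 4. The counts lower and higher were 11 and 0 at day 0 (all tested genes 23.1% and 24.8%), 12 and 0 at day 2 (28.4% and 29.2%), 8 and 0 at day 4 (27.1% and 27.2%), and 5 and 3 at day 6 (28.8% and 27.7%). The count at day 0 includes mt-Co3 and that at day 2 includes mt-Co2, whose differences of −0.40 and −0.37 turned to 0.19 and 0.0215 when the counts of the nuclear copies were added. Leaving out single libraries gave 6 to 9 calls in either direction at day 4 and 6 to 7 at day 6. The higher calls at day 6 include mt-Nd3, at 2.05, or 0.93 without BPK25 day 6 replicate 2. For mt-Nd5 the differences were −1.08 at day 0 (adjusted p = 2.67e-28), −0.95 at day 2, −0.40 at day 4 and −0.11 at day 6. The ribosomal RNAs went the other way at day 4, where BPK25 was above IAA by 0.64 for mt-Rnr1 and 0.55 for mt-Rnr2, both called.

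The differences from DMSO were also tested between days. A joint test of whether the difference changed over the 4 days was called for 10 of the 13 messenger RNAs with BPK25 and 12 of 13 with IAA, and for both ribosomal RNAs with each, where 47.1% and 70.1% of all tested genes were called. With IAA the exception was mt-Atp8. With BPK25 the exceptions were mt-Atp8, mt-Co3 and mt-Nd3.

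Most nuclear subunit genes of the same 4 enzymes were lower at day 4 with either treatment. Of 75 measured nuclear subunit genes, 2 were called higher and 56 lower with BPK25 at day 4 (all tested genes 26.2% and 26.8%, list median −0.28), and 1 and 63 with IAA at day 4 (all tested genes 25.9% and 25.9%, list median −0.30). The lower calls with BPK25 covered 24 of 37 complex I, 8 of 9 complex III, 7 of 11 complex IV and 17 of 18 ATP synthase genes. With IAA the counts higher and lower were 7 and 26 at day 0 (all tested genes 21.3% and 23.2%), 6 and 44 at day 2 (27.5% and 27.9%), and 4 and 40 at day 6 (30.6% and 30%). With BPK25 they were 7 and 5 (3.32% and 4.58%), 8 and 8 (6.4% and 7.12%), and 6 and 13 (4.01% and 3.08%) at those days. From day 0 to day 6 in DMSO, 10 rose and 52 fell (all tested genes 33.2% and 29.5%, list median −0.27), while 10 of the 13 mitochondrial messenger RNAs were higher. Of the 6 messenger RNAs without a near-identical annotated copy, 3 were higher and 0 lower.

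Of 19 tested nuclear genes that copy and transcribe mitochondrial DNA, 3 were higher and 7 lower with BPK25 at day 4 (all tested genes 26.2% and 26.8%), and 6 and 3 with IAA at day 4 (25.9% and 25.9%), so neither count departs far from the share over all genes. With IAA at day 6, 9 were higher and 2 lower (all tested genes 30.6% and 30%, list median 0.21). Tfam, which packs mitochondrial DNA and opens its promoters, was not called with IAA at day 0, was lower at day 4 (−0.17) and higher at day 6 (0.21, adjusted p = 7.46e-04). Polrmt, the mitochondrial RNA polymerase, was lower with IAA at day 2 (−0.30) and day 6 (−0.25), and with BPK25 at day 4 it stood at −0.07 and was not called. Primpol, a primase that works in the nucleus and mitochondria, was higher with IAA at day 6 by 1.29.

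Of 40 tested genes that process, stabilise or break down mitochondrial RNA, 5 were higher and 12 lower with BPK25 at day 4 (all tested genes 26.2% and 26.8%). With IAA 6 were higher and 23 lower at day 2 (27.5% and 27.9%), 8 and 11 at day 4 (25.9% and 25.9%), and 8 and 9 at day 6 (30.6% and 30%). The lower calls at day 2 were thus above the share over all genes, and the day 4 counts were near it. Lrpprc, which binds and stabilises mitochondrial messenger RNAs, was lower with IAA at day 2 (−0.31), day 4 (−0.20) and day 6 (−0.54, adjusted p = 4.47e-13). With BPK25 at day 4 it stood at −0.15 (adjusted p = 0.0113), a call lost without BPK25 day 4 replicate 1. Its partner Slirp was higher with IAA at day 0 (0.33), day 2 (0.57) and day 6 (0.29). At day 6 with IAA, Elac2, which trims the 3′ ends of transfer RNAs, fell by 0.83, and Pde12, which removes poly(A) tails in mitochondria, rose by 0.70.

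Of 15 nuclear regulators of mitochondrial genes, 10 were higher and 3 lower with BPK25 at day 4 (all tested genes 26.2% and 26.8%, list median 0.42). With IAA they were 6 and 3 at day 4 (25.9% and 25.9%) and 3 and 5 at day 6 (30.6% and 30%), the latter near the share over all genes. Ppargc1a, a coactivator that promotes mitochondrial biogenesis, was higher with BPK25 at day 4 by 0.95 and with IAA at day 4 by 1.64 and at day 6 by 1.49, where it read 5.57 CPM against 2.02. The related Ppargc1b was higher with IAA at day 4 by 1.16 and at day 6 by 1.54 (14.6 against 4.86 CPM). Sirt1, a deacetylase that acts on Ppargc1a, fell by 1.21 with IAA at day 6. Esrrg, a nuclear receptor of the oestrogen-related family, had few reads, and was higher with BPK25 at day 4 by 1.69 ± 0.38 (82 reads in 3 libraries against 23). Its call with IAA at day 4 (0.97, adjusted p = 0.0464) was lost with DESeq2 and without any one of DMSO day 4 replicates 1, 2 and 3 or IAA day 4 replicates 2 and 3. At day 2 it had 32 reads with IAA and 3 in DMSO, and no fold is given. Ppara, a receptor for fatty acids, was lower with BPK25 at day 4 (−0.97, 33 reads against 59) and with IAA at day 6 (−1.32, 14 reads against 51), where the call was lost without IAA day 6 replicate 1 (−0.96).

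Markers of cell types moved with days and treatments as well. The 10 pluripotent stem cell markers summed to a group mean of 3184 CPM in DMSO at day 0, 2972 at day 2, 1385 at day 4 and 882 at day 6. The sums were 3234, 2968, 1193 and 922 with BPK25 and 4486, 1714, 982 and 798 with IAA. The 12 fibroblast markers, which could mark feeder cells, summed to 185, 169, 270 and 400 CPM in DMSO, 186, 177, 200 and 429 with BPK25, and 165, 260, 387 and 573 with IAA. Of these, 10 rose in DMSO from day 0 to day 6 (33.2% of all tested genes). With IAA 7 were higher and 2 lower than DMSO at day 4 (all tested genes 25.9% and 25.9%), and 7 and 3 at day 6 (30.6% and 30%). With BPK25 at day 4, 2 were higher and 5 lower (all tested genes 26.2% and 26.8%). Of the fibroblast markers, Dcn and Lum were at 0 with BPK25 at day 4 and with IAA at day 2, and Lum was at 0 with IAA at day 0. The part of either marker change in the mitochondrial results was not tested.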

How the data were processed

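The authors deposited 1 table of raw counts per gene for 36 libraries, in which every column matched 1 sample title. Per the labels' protocols, libraries were made from polyadenylated RNA with a SMARTer mRNA-Seq kit. The submitters' processing notes name FastQC 0.11.7, HISAT2 2.1.0, featureCounts 2.0.1, DESeq2 and the build mm10, while the sources used here do not give the annotation release or the settings for strand and multi-mapping reads. Counts were tested as deposited in edgeR 4.0.16 (R 4.3.3): genes passing filterByExpr (minimum count 10, minimum total 15), TMM scaling, 1 fit of 12 groups, quasi-likelihood tests and Benjamini-Hochberg adjustment over 17394 genes at 0.05, with a common biological coefficient of variation of 3.86%. The script was tested on simulated data. DESeq2 1.42.0 was an alternative. CPM values printed are TMM-scaled. Depth was 6621288 to 16497799 counts per library. Replicate pairs differed beyond sampling noise (chi-square per degree of freedom 1.35 to 2.85), so all were kept. Positions and sequences come from the GENCODE annotation of GRCm38, which matched 37 of 37 gene identifiers, and nuclear copies were found with BLAST 2.17.0 among annotated transcripts (at least 95% identity over 100 bases).

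All 13 messenger RNA and both ribosomal RNA genes are described; other nuclear genes named are some of the 8 members of the lists with the largest called changes in a comparison, mainly at days 4 and 6, and Polrmt, Tfam, Lrpprc and Slirp. Members and lists were chosen with earlier results of these data known. Same-numbered replicates of the groups compared did not deviate together (correlations −0.028 to 0.047 over 45 pairs), so the numbers were not used as pairs.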

Additional observations from a re-analysis of the deposited data

Results flagged for a closer look

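The difference from DMSO changed between the 4 days for the genes given here, by a joint test of the treatment-by-day terms in edgeR with Benjamini-Hochberg adjustment over all 17394 tested genes. Such calls were common, at 47.1% of all tested genes with BPK25 and 70.1% with IAA.

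With BPK25 the adjusted p was 3.08e-12 for mt-Nd1, 2.41e-17 for mt-Co1 and 8.32e-16 for mt-Nd5, which were below DMSO at days 0 and 2 and above it at day 4. It was 2.09e-09 for mt-Nd2, 1.75e-10 for mt-Cytb and 9.22e-08 for mt-Nd6. For genes other than mt-Co1 that have near-identical nuclear copies it was 2.91e-05 for mt-Co2, 0.0354 for mt-Atp6, 0.00263 for mt-Nd4l and 0.00805 for mt-Nd4. The ribosomal RNAs mt-Rnr1 and mt-Rnr2 gave 2.3e-05 and 1.56e-06.

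With IAA it was 2.42e-21 for mt-Cytb, which was above DMSO up to day 4 and below it at day 6, and 8.43e-15 for mt-Nd6, whose difference was largest at day 6. It was 1.15e-15 for mt-Co1, 2.08e-14 for mt-Nd5, 4.59e-11 for mt-Nd1 and 0.00678 for mt-Nd2. Genes other than mt-Co1 with near-identical nuclear copies gave 8.76e-07 for mt-Nd4, 4.64e-05 for mt-Co2, 0.000249 for mt-Atp6, 0.00199 for mt-Nd4l, 0.00207 for mt-Co3 and 0.0359 for mt-Nd3. The value of mt-Nd3 includes DMSO day 6 replicate 1, which stood at 28.2 CPM against 4.75 and 5.71 in its group. For mt-Rnr1 and mt-Rnr2 it was 1.45e-09 and 1.77e-09.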

How the results depend on the processing

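Alternatives to the scaling, filter, samples fitted and test, each left-out library and the replicate block were tried as planned, and adding the counts of nuclear copies was chosen after seeing the data. The number of the 13 messenger RNAs called with BPK25 at day 0 was 4, and 8 with no filter, 7 with only the libraries compared and 8 with only the 9 libraries of that day. At day 2 it was 3, and 6 with no filter. In DMSO at day 2 against day 0 it was 0, and 1 with no filter, while the log2 difference of the summed level ran from −0.00283 to 0.0711 over left-out libraries. The cause was not tested. With copies added, mt-Co3 for BPK25 against IAA at day 0 turned to 0.19 and mt-Co2 at day 2 to 0.0215. Leaving out single libraries gave 8 to 11 calls for BPK25 at day 4, 4 to 6 at day 6, 11 to 12 for IAA at day 4 and 7 to 8 at day 6. With the replicate block the BPK25 day 4 count stayed at 11 and mt-Nd6 with IAA at day 6 was 2.37, and no call of a mitochondrial messenger or ribosomal RNA changed, while Esrrg with IAA at day 4 was no longer called (0.96). Low counts limit mt-Nd3 and the transfer RNAs other than mt-Tl1.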
